A study of Mus musculus with 4 samples.

Results

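The 9 genes described here belong to bone morphogenetic protein (BMP) signalling and were taken by gene symbol from the 30360 genes of a single-cell RNA count table of mouse colonic organoids. They were the ligands Bmp2, Bmp4, Bmp5 and Bmp7, the protease Bmp1, the secreted antagonists Grem1 and Chrdl1, and the target genes Id1 and Id3. Every symbol was found and matched 1 gene. BMP ligands are secreted dimers that bind paired serine/threonine kinase receptors and act through the transcription factors SMAD1, SMAD5 and SMAD8. In the colon, BMP signalling is strongest towards the crypt top and restrains stem cells, while mesenchymal cells around the crypt base secrete antagonists such as Gremlin 1, which bind the ligands and keep them from their receptors. The Id genes encode inhibitors of helix-loop-helix transcription factors and are direct SMAD targets in many cell types.

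The organoids were grown from minced distal colon of mice aged 16 weeks, either wildtype (C57BL/6) or Tnfr2-/-, a whole-body deletion of Tnfrsf1b, the gene for TNF receptor 2. After passage 5, a culture of each genotype was left untreated (vehicle per the labels) and another was given 20 ng/ml of tumor necrosis factor (TNF), starting on day 1 and ending on day 6. Dissociation followed on day 7, dying cells were removed with an annexin kit, and single-cell libraries read from the 3' end were prepared with 10x Chromium. The order of the groups throughout is wildtype untreated, wildtype with TNF, Tnfr2-/- untreated and Tnfr2-/- with TNF. Each of these 4 groups was 1 library of 1 culture, so there were no replicates, no test between groups was possible and every interval below covers counting error only. Runs of 4 values keep that order. The Tnfr2-/- mice were a purchased stock strain, the sex and number of the donors of each culture were not given in the labels, and the mesenchymal cells were those that had persisted in culture to passage 5.

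The libraries held 2589, 1469, 1117 and 980 cells, 6155 in all, with 44547639 to 87228093 unique molecular identifiers (UMIs, tagged single transcripts) each. Mesenchymal cells by the deposited classes numbered 1430, 306, 90 and 122, and epithelial cells 1128, 1163, 1023 and 858. Tnfrsf1b, the deleted gene, was at 18.02, 19.17, 7.809 and 13.41 CPM (UMIs scaled to the total of the summed cells) in the mesenchyme and at 4.172, 12.11, 1.816 and 6.889 CPM in the epithelium. It was lower in the Tnfr2-/- library of each pair but not absent, and a 3' tag outside the deleted part of a gene does not check the deletion. The class labels matched their markers. A list of 11 mesenchymal genes summed to 9525 to 16710 CPM in the mesenchyme and to 5.844 to 24.54 CPM in the epithelium, where 1 or 2 of the 11 were at 0. A list of 7 epithelial genes summed to 11570 to 14410 CPM in the epithelium and to 141.5 to 813.8 CPM in the mesenchyme. Smooth muscle and pericyte genes summed to at most 5 CPM in any mesenchyme, endothelial genes to at most 1.836 CPM, glial and neural genes to at most 0.977 CPM and immune genes to at most 0.06799 CPM. The 2 markers of interstitial cells of Cajal, Kit and Ano1, summed to 0.6609, 1.7, 2.756 and 25.36 CPM in the mesenchyme and to 20.09 to 31.7 CPM in the epithelium, so the Tnfr2-/- TNF mesenchyme stood apart, as it did in the epithelial list (813.8 CPM), and the part of either in its values was not tested. Xist, the RNA that silences 1 X chromosome of female cells, stood at 704.8, 553.1, 0.4593 and 0 CPM in the mesenchyme, and 4 Y-linked genes summed to 0.08621, 0.4759, 143.3 and 135 CPM. The genotype and this sex-linked pattern cannot be told apart in any comparison between genotypes. Only 3 cell barcodes occurred in more than 1 library.

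The 9 genes lie on 5 chromosomes of the GRCm38 build (GENCODE M21). On chromosome 2 lie Grem1 (ENSMUSG00000074934; chr2:113746164-113758646, minus strand), Bmp2 (ENSMUSG00000027358; chr2:133552159-133562885, plus strand), Id1 (ENSMUSG00000042745; chr2:152736251-152737410, plus strand) and Bmp7 (ENSMUSG00000008999; chr2:172868012-172940321, minus strand). On chromosome 14 lie Bmp4 (ENSMUSG00000021835; chr14:46383520-46390669, minus strand) and Bmp1 (ENSMUSG00000022098; chr14:70474558-70520234, minus strand). Bmp5 (ENSMUSG00000032179; chr9:75775364-75900310, plus strand), Id3 (ENSMUSG00000007872; chr4:136143497-136145755, plus strand) and Chrdl1 (ENSMUSG00000031283; chrX:143285674-143394262, minus strand) are each alone on their chromosome. Bmp4 overlaps Gm15217 and Gm15222 on the opposite strand. Bmp5 overlaps Gm26903 on the opposite strand and Gm47723 on its own strand, the last of which had no entry in the count table, and how reads in these overlaps were assigned was not tested.

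Promoter sequences (250 bases before to 50 after the RefSeq start, GRCm38.p6, read 5' to 3' on the strand of the gene) were available for 4 of the 9 genes. The Id3 window lies wholly inside the GENCODE span of the gene given above, downstream of the start of that span. They are shown for the antagonist that was highest in the TNF libraries (Grem1, chr2:113758599-113758898, minus strand) and for the ligand and the target that were lowest relative to untreated cells in 1 of the genotypes (Bmp5, chr9:75775115-75775414, plus strand, and Id3, chr4:136143572-136143871, plus strand). Capitals mark the motif GGCGCC, a SMAD-binding palindrome.
Grem1: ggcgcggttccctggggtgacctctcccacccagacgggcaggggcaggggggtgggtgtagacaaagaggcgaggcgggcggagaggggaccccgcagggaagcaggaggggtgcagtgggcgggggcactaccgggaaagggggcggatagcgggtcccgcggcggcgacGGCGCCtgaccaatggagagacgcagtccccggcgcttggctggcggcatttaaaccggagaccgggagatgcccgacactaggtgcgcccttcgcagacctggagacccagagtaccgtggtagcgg
Bmp5: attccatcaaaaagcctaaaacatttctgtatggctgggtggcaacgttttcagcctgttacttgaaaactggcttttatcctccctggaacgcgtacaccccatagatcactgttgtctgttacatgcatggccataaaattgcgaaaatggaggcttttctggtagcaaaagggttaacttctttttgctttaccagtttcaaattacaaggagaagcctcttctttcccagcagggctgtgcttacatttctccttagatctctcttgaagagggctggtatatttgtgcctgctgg
Id3: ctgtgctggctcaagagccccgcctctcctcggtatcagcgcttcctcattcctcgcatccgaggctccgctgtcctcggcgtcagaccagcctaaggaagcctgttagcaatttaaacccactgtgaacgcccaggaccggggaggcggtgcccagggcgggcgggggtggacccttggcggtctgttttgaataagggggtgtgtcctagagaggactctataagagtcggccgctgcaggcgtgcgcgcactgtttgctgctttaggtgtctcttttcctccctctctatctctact

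The Grem1 promoter was the most G and C rich of these, with 70.7% G and C against 60% for Id3, 43.3% for Bmp5 and a median of 52.7% over all promoters of this length. It held GGCGCC once, 78 bases before the start, and this motif occurs on either strand in 11.9% of all 32841 promoters. The palindrome GTCTAGAC (in 0.213% of all), the letters TATAAA (in 13.6%) and the NF-kB consensus (in 4.51%), each searched on both strands, had no match in the promoters of Bmp4, Bmp5, Grem1 or Id3. A match or its absence describes these letters only.

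Most of the UMIs of 7 of the 9 genes lay in mesenchymal cells, most of those of Id1 in epithelial cells, and Chrdl1 was too rare to place. Levels are UMIs summed over the cells of a compartment and scaled to the total of the same cells as CPM. A difference is taken on the log2(CPM + 1) scale, which understates the difference of low genes, and a gene is counted as at least 2-fold higher or lower only where it reached 20 CPM in at least 1 of the 2 sums. In wildtype untreated cells, 7 of the 8 BMP genes at this minimum were at least 2-fold higher in mesenchyme than in epithelium and none was lower, where 41.5% of all 7171 genes compared differed by that much (25.1% higher, 16.4% lower). In wildtype TNF cells 6 of 7 were higher and 1 was lower (37.4% of all genes, 21.2% higher and 16.2% lower). In Tnfr2-/- untreated cells 7 of 8 were higher (44.0% of all genes, 23.1% higher and 21.0% lower), and in Tnfr2-/- TNF cells 6 of 7 were higher and 1 lower (38.4% of all genes, 20.9% higher and 17.5% lower). The gene that was lower in the TNF libraries was Id1.

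**Figure D1:**
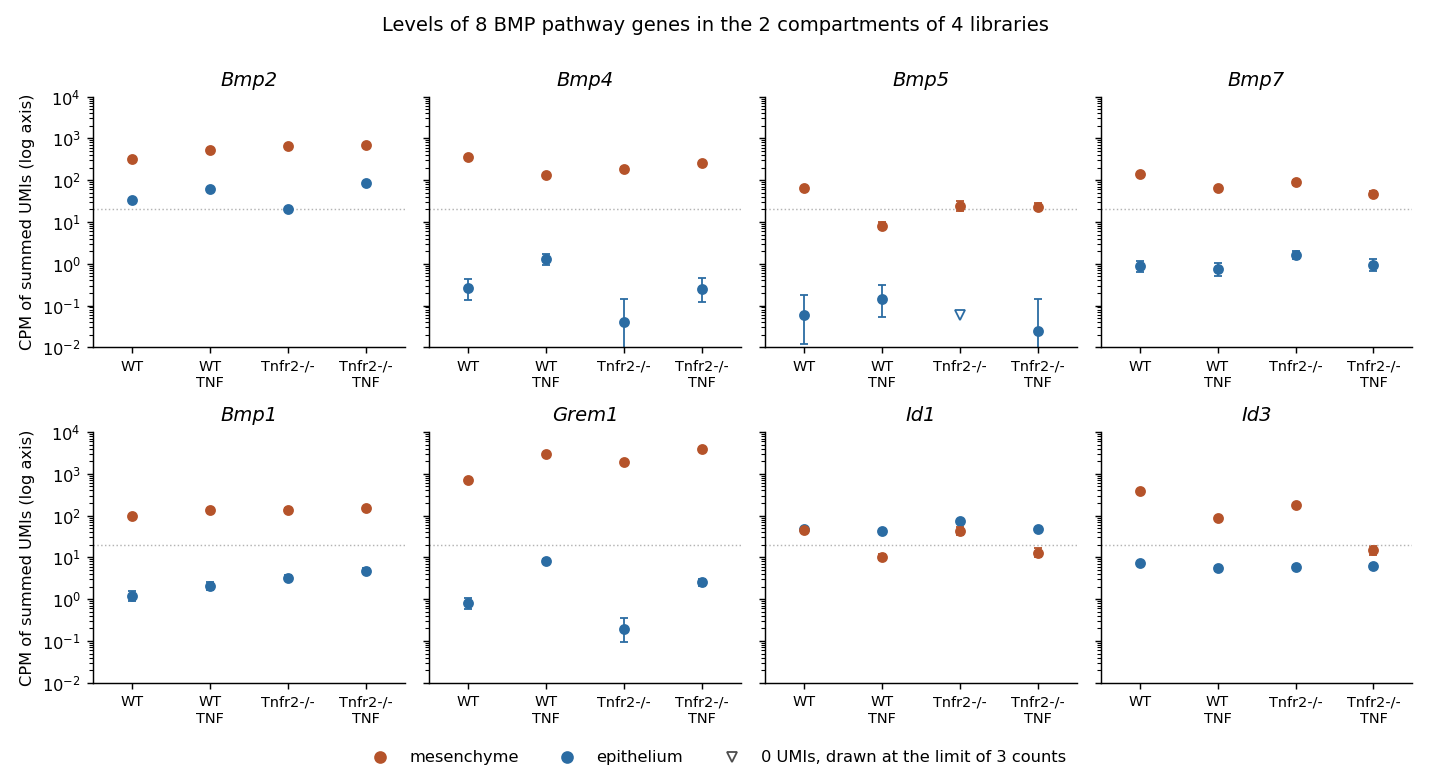
Level of 8 BMP genes (CPM, log axis) in the 4 libraries, summed over mesenchymal cells (orange-brown) and epithelial cells (blue), with exact Poisson 95% intervals, the 20 CPM minimum as a dotted line and sums of 0 UMIs as open triangles at the limit of 3 counts. Grem1, Bmp4, Bmp5, Bmp7 and Bmp1 sit far higher in mesenchyme in every library, Id1 does not, and mesenchymal Grem1 spans 694.4 to 4030 CPM.

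Bmp2, the ligand with the most UMIs in all (32734 in 3590 cells), was made in both compartments. Its mesenchymal level was 319.3 CPM (95% interval 313.4 to 325.3), 530.4 CPM (518.7 to 542.3), 673.9 CPM (639.8 to 709.2) and 699.4 CPM (675.8 to 723.5). Wildtype untreated cells were lowest, and the intervals of both Tnfr2-/- libraries overlapped. The epithelial level was 34.17 CPM (32.58 to 35.83), 60.84 CPM (58.49 to 63.26), 20.32 CPM (19.09 to 21.6) and 86.76 CPM (83.89 to 89.7), so both TNF libraries were above both untreated ones. The epithelium had 10.7%, 11.5%, 3.01% and 12.4% of the mesenchymal level. For comparison, the 11 mesenchymal markers had a median of 0.087%, 0.298%, 0.0298% and 0.0767% of their mesenchymal level in the epithelium (at most 0.631%), so epithelial Bmp2 stood above the level at which mesenchymal RNA was found in epithelial cells generally. After thinning every cell to 5000 UMIs, a Bmp2 UMI was found in 13.73%, 20.16%, 8.687% and 29.67% of epithelial cells (45.12%, 41.7%, 32.65% and 69.58% without thinning, at medians of 37245.5, 30306, 41057 and 37368.5 UMIs per cell).

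Bmp4, the ligand closest in sequence to Bmp2, was nearly absent from epithelium outside the Secretory-Reg4-Ang4 class. Its mesenchymal level was 360.6 CPM (354.3 to 366.9), 130.9 CPM (125.1 to 136.9), 182.8 CPM (165.3 to 201.7) and 257.4 CPM (243.2 to 272.2), with no overlap between the 4 intervals. Wildtype untreated cells were highest and wildtype TNF cells lowest. Epithelial sums held 13, 53, 2 and 10 UMIs, or 0.0716%, 0.979%, 0.0216% and 0.0977% of the mesenchymal level, and the excess in the wildtype TNF library lay in low-depth classes. Without the Secretory-Reg4-Ang4 class (246 cells of that library, median 1957.5 UMIs) and the Progenitor.3 class, the wildtype TNF value was 0.0781%. In the Secretory-Reg4-Ang4 class itself Bmp4 was at 63% of its mesenchymal level. The mesenchymal markers there were at a median of 13.2% and at most 42.1%. Whether these cells made Bmp4 or held mesenchymal RNA was not tested.

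Bmp5, a ligand of the same subfamily as Bmp7, was the least abundant ligand. It was at 64.37 CPM (61.73 to 67.09), 8.158 CPM (6.764 to 9.755), 24.8 CPM (18.63 to 32.36) and 23.05 CPM (18.95 to 27.79) in the mesenchyme. Wildtype untreated cells were highest, wildtype TNF cells lowest, and both Tnfr2-/- libraries overlapped between them. Epithelial sums held 3, 6, 0 and 1 UMIs, and the count of 0 allows up to 0.05923 CPM. In the Secretory-Reg4-Ang4 class of the wildtype TNF library Bmp5 was at 120% of the mesenchymal level, from at most 6 UMIs.

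Bmp7 was at 140.9 CPM (136.9 to 144.9), 66.22 CPM (62.12 to 70.51), 88.65 CPM (76.59 to 102.1) and 47.16 CPM (41.19 to 53.74) in the mesenchyme. The TNF library of each genotype was below its untreated library, and no intervals overlapped. Summed over the epithelium Bmp7 was at 0.7496 to 1.599 CPM, with higher values in enteroendocrine cells and in some sums of other secretory classes. In enteroendocrine cells, which secrete hormones, it was at 22.87 CPM in the wildtype untreated, 11.49 CPM in the wildtype TNF and 26.66 CPM in the Tnfr2-/- TNF library, the first from 15 UMIs, and the Tnfr2-/- untreated library had too few of these cells (18, under the minimum of 20). The Secretory-Reg4-Spdef-Lyz1 class had 4.932 CPM in the wildtype untreated (14 UMIs) and 7.11 CPM in the Tnfr2-/- untreated library (17 UMIs). Its wildtype TNF sum was below both of these values. The Secretory-Reg4-Ang4 class had 25.51 CPM (13 UMIs), beside the mesenchymal RNA that this class also held.

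Bmp1, despite its name, is no BMP ligand but a tolloid metalloprotease that trims procollagen and cleaves the antagonist chordin. Its mesenchymal level varied least, at 95.92 CPM (92.69 to 99.23), 138.5 CPM (132.5 to 144.6), 138.7 CPM (123.5 to 155.3) and 149 CPM (138.3 to 160.4). Only the wildtype untreated library stood apart from the rest. Epithelial Bmp1 was at 1.192, 2.055, 3.278 and 4.852 CPM, or 1.24% to 3.26% of the mesenchymal level.

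Grem1, the antagonist that binds BMP2, BMP4 and BMP7, was the most abundant of the 9 genes, with 93346 UMIs of which 92310 lay in mesenchymal cells. Its mesenchymal level was 694.4 CPM (685.6 to 703.2), 3039 CPM (3011 to 3067), 1938 CPM (1880 to 1998) and 4030 CPM (3973 to 4087). The TNF libraries were highest, and no intervals overlapped. The fold over epithelium on the log2(CPM + 1) scale was 387, 327, 1620 and 1140. Epithelial Grem1 was at 0.114%, 0.273%, 0.0102% and 0.063% of the mesenchymal level, within the range of the 11 markers in each library, and is read as background. After thinning, 67.89%, 99.66%, 96.51% and 100% of mesenchymal cells held a Grem1 UMI (86.85%, 100%, 98.89% and 100% without thinning, at medians of 22642.5, 48633, 24549 and 37644.5 UMIs), against 0.2765%, 1.833%, 0% and 0.8274% of epithelial cells (3.014%, 18.23%, 0.782% and 5.594% without thinning). The share of 0 allows up to 0.303%.

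Chrdl1, a chordin-like antagonist on the X chromosome, was practically undetected. It had 3 UMIs in all, 2 in the wildtype untreated and 1 in the Tnfr2-/- untreated mesenchyme, from 0.14% and 1.11% of the cells. The share of 0 in the TNF libraries allows up to 0.98% (wildtype, 306 cells) and 2.46% (Tnfr2-/-, 122 cells) of mesenchymal cells with a UMI. In epithelium there was no UMI, which allows up to 0.266%, 0.258%, 0.293% and 0.350% of the cells. Chrdl1 was under the minimum in every comparison.

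Id1 was the exception among the 9 genes, with 10018 of its 12032 UMIs in epithelial cells. Epithelium also held more UMIs of all genes together in every library, so this count follows compartment size in part. The epithelial level was 48.8 CPM (46.89 to 50.77), 42.56 CPM (40.59 to 44.59), 76.27 CPM (73.88 to 78.72) and 48.75 CPM (46.6 to 50.97), with the Tnfr2-/- untreated library above the others. The mesenchymal level was 46.04 CPM (43.81 to 48.35), 10.33 CPM (8.756 to 12.11), 43.18 CPM (34.89 to 52.84) and 12.99 CPM (9.962 to 16.66). In the mesenchyme both untreated libraries overlapped, as did both TNF libraries, and the untreated pair was above the TNF pair. The mesenchyme minus epithelium difference on the log2 scale was -0.08, -1.94, -0.81 and -1.83.

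Id3 differed from Id1 in place as well as in pattern. It was at 398.4 CPM (391.8 to 405.1), 88.45 CPM (83.71 to 93.39), 175.9 CPM (158.7 to 194.5) and 14.88 CPM (11.62 to 18.77) in the mesenchyme, and at 7.153, 5.513, 5.864 and 6.159 CPM in the epithelium. The mesenchymal levels spanned the widest range of the target genes, with Tnfr2-/- TNF cells lowest. In that library the epithelial level was 41.4% of the mesenchymal one, against 1.8%, 6.23% and 3.33% in the others. Thinned shares of mesenchymal cells with an Id3 UMI were 65.56%, 26.17%, 41.86% and 3.333% (86.5%, 65.03%, 62.22% and 24.59% without thinning), and epithelial cells were at 2.749% to 3.31%. The mesenchymal Tnfr2-/- TNF share was thus near the epithelial one.

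The question of what TNF did to the niche genes was asked within each genotype. In wildtype mesenchyme, TNF-treated cells had more Grem1 and less Bmp4, Bmp5, Bmp7, Id1 and Id3. Of the 8 BMP genes at the minimum, 1 was at least 2-fold higher and 5 were at least 2-fold lower, where 13.2% of all 6683 genes compared were past 2-fold (6.03% higher, 7.21% lower). The median difference of the 8 genes was -1.27 on the log2 scale, against 0.00474 over all genes. Grem1 was 4.37-fold higher (log2 difference 2.13, interval of the log2 ratio 2.11 to 2.15). Bmp5 was 7.14-fold lower (-2.84), Bmp4 2.74-fold lower (-1.46) and Bmp7 2.11-fold lower (-1.08, interval -1.19 to -0.99), the last close to the 2-fold limit. The targets Id1 and Id3 were 4.15-fold (-2.05) and 4.47-fold (-2.16) lower. Bmp2 and Bmp1 were under 2-fold, at log2 differences of 0.73 and 0.53.

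In Tnfr2-/- mesenchyme the antagonist and targets differed in the same direction and the ligands less. Grem1 was 2.08-fold higher (1.06, interval 1.01 to 1.10), Id1 3.16-fold lower (-1.66) and Id3 11.1-fold lower (-3.48, interval -3.95 to -3.20). These 3 of 8 genes (1 higher, 2 lower) stood beside 12.4% of all 6354 genes past 2-fold (5.71% higher, 6.74% lower), and the median was -0.0239 for the 8 genes and -0.11 over all genes. Bmp7 was at -0.90 (interval -1.20 to -0.63), an interval that includes 2-fold. Bmp4 was at 0.49, Bmp2 at 0.05, Bmp5 at -0.10 and Bmp1 at 0.10.

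Set side by side, the TNF difference of Bmp4 was -1.46 in wildtype and 0.49 in Tnfr2-/- mesenchyme, and that of Bmp5 was -2.84 and -0.10. Grem1 was at 2.13 and 1.06, and Id3 at -2.16 and -3.48. With 1 library per group, none of these differences between genotypes was tested.

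**Figure D2:**
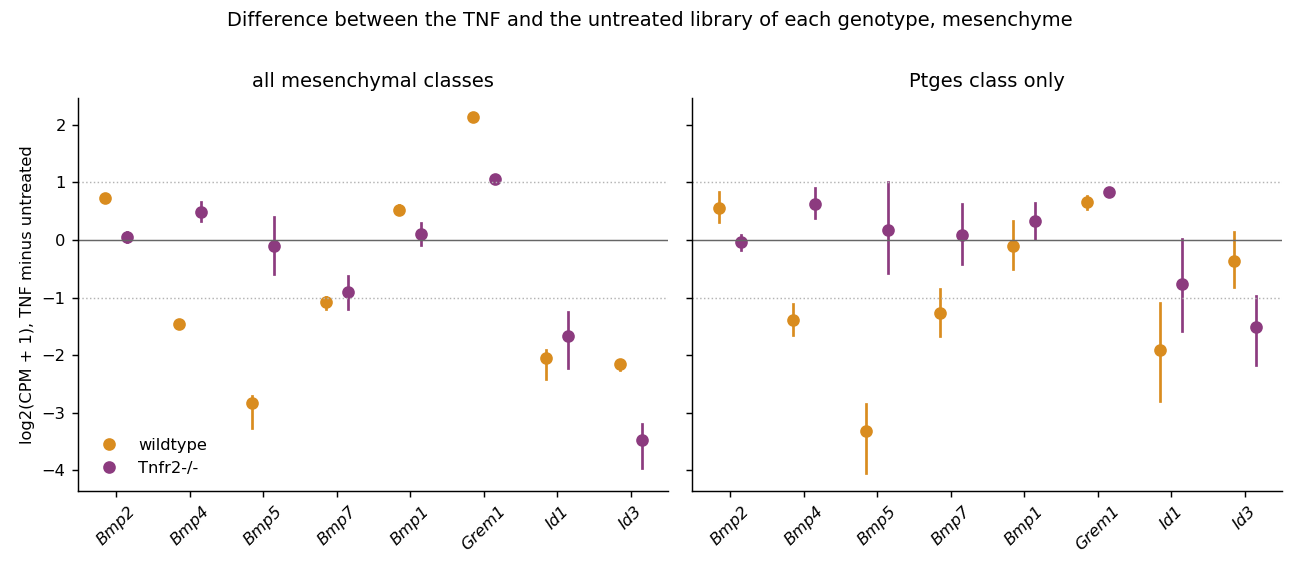
TNF minus untreated difference on the log2(CPM + 1) scale (y axis) for 8 BMP genes in wildtype (gold) and Tnfr2-/- (purple) mesenchyme, over all mesenchymal classes (left) and in the Ptges class alone (right), with counting intervals as bars and 2-fold as dotted lines. Over all classes wildtype Grem1 is at 2.13 and Bmp5 at -2.84, and in the Ptges class alone wildtype Grem1 is at 0.66 and Id3 at -0.36.

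The mesenchymal classes present differed between the libraries. The deposited classes, made by the authors by clustering these cells, were Mesenchyme-Ifitm1, Mesenchyme-generic, Mesenchyme-proliferative and Mesenchyme-Ptges, named after leading genes. In the wildtype untreated library 892 cells were Ifitm1, 393 generic, 111 proliferative and 34 Ptges. In the wildtype TNF library 304 of 306 cells were Ptges, in the Tnfr2-/- untreated library 51 were generic and 37 Ptges, and in the Tnfr2-/- TNF library all 122 were Ptges. In sums over the mesenchyme, a different mix of classes and a different level per cell of a class cannot be told apart, so each class is also given alone. Differences between classes are descriptions, since the BMP genes were among the genes clustered.

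Within the Ptges class, the only class with at least 20 cells in all 4 libraries, wildtype Grem1 was at 1936 CPM untreated and 3050 CPM with TNF, a difference of 0.66 in place of 2.13 over all classes. The Tnfr2-/- levels were 2266 and 4030 CPM (0.83). Wildtype Bmp4 (344.5 and 131.6 CPM, -1.38), Bmp5 (90.5 and 8.211 CPM, -3.31), Bmp7 (160.6 and 66.44 CPM, -1.26) and Id1 (40.87 and 10.19 CPM, -1.90) were still at least 2-fold lower with TNF. Id3 was at 113.9 and 88.67 CPM (-0.36), so its 4.47-fold difference over all classes was not found inside this class. That made 0 higher and 4 lower of 8 BMP genes in wildtype Ptges cells, where 24.4% of all genes were past 2-fold. In Tnfr2-/- Ptges cells only Id3 was past 2-fold (44.44 and 14.88 CPM, -1.52), where 8.71% of all genes were, and Id1 was at -0.77 and Bmp7 at 0.08. The wildtype untreated Ptges sum rests on 34 cells with a median of 5755 UMIs, far below the other libraries. Leaving out the Ifitm1 class in place of all classes but Ptges gave other calls for wildtype TNF, with Bmp4 at -0.68 and Bmp7 at -0.29, both under 2-fold, Bmp2 past it at 1.77 and Id3 at -1.91, while Bmp5 (-1.81), Grem1 (1.62) and Id1 (-2.21) stayed past 2-fold.

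The wildtype untreated library shows how the BMP genes were spread over the classes of 1 culture. Ifitm1 cells held the ligands, with Bmp2 at 422.8 CPM, Bmp4 at 455.6 CPM, Bmp5 at 85.29 CPM and Bmp7 at 178.5 CPM. Generic cells held less of every ligand, at 95.28, 70.54, 1.672 and 32.87 CPM, and more Grem1 (1196 against 508.4 CPM, log2 difference 1.23). The ligand differences, generic minus Ifitm1, were -2.14 for Bmp2, -2.67 for Bmp4, -5.01 for Bmp5 and -2.41 for Bmp7, which made 1 higher and 4 lower of 8 BMP genes beside 8.44% of all genes. Proliferative cells resembled Ifitm1 cells in these genes (0 of 8 past 2-fold, beside 8.58% of all genes), the largest difference being Id1 at 74.58 against 42.74 CPM. Ptges cells had ligand levels within 0.40 of Ifitm1 cells on the log2 scale, but more Grem1 (1936 CPM, 1.93) and less Id3 (113.9 against 437.8 CPM, -1.93), so 1 was higher and 1 lower of 8, beside 18.9% of all genes.

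Both classes of the Tnfr2-/- untreated library held Bmp2, Bmp4 and Grem1 at like levels. Generic and Ptges cells had 656.2 and 720.6 CPM of Bmp2, 192.3 and 165.7 CPM of Bmp4 and 1733 and 2266 CPM of Grem1. Ptges cells were lower in Bmp7 (44.44 against 116 CPM, -1.36), Id1 (22.82 against 50.36 CPM, -1.11) and Id3 (44.44 against 253.3 CPM, -2.48), which made 3 of 8 lower and none higher, beside 13.8% of all genes. Low Id3 in the Ptges class was therefore seen in the untreated library of each genotype.

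**Figure D3:**
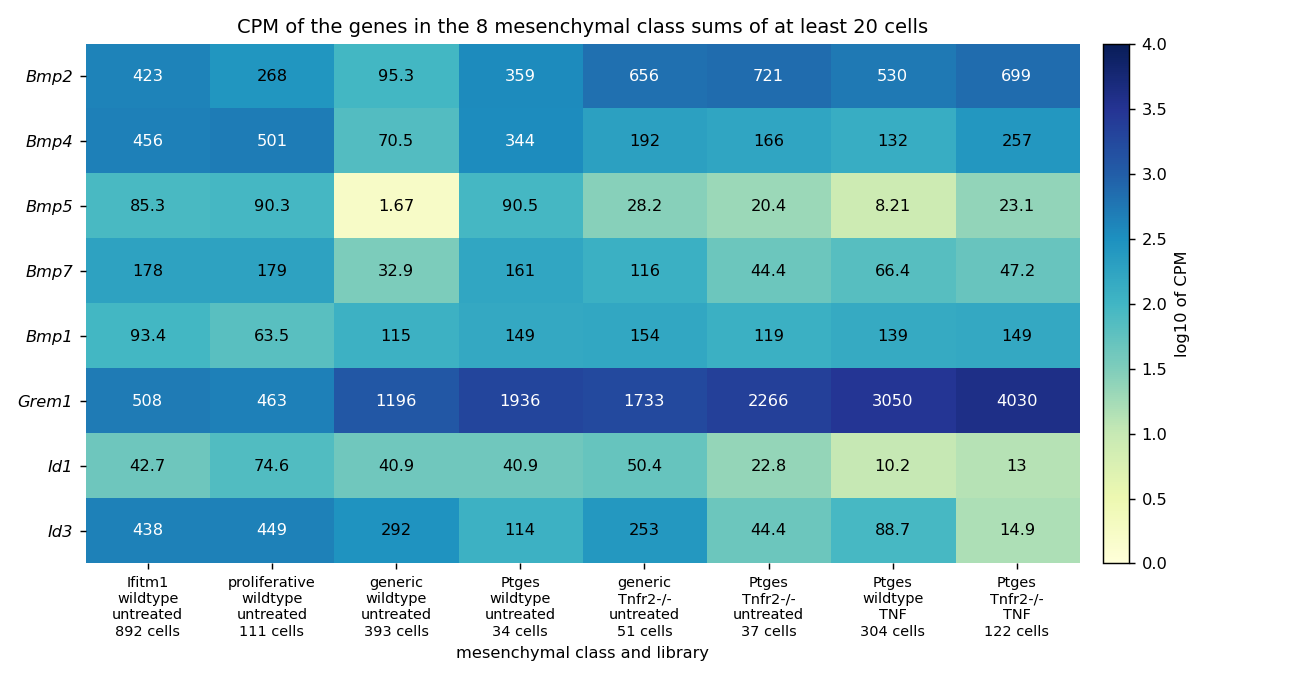
Level of 8 BMP genes (rows; CPM printed, colour on a log10 scale) in the 8 sums of a mesenchymal class and library with at least 20 cells (columns). The ligands are lowest in wildtype untreated generic cells (Bmp5 1.672 CPM), and Grem1 is highest in Ptges cells with TNF (3050 and 4030 CPM).

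The genotypes were compared within each treatment. In untreated mesenchyme Tnfr2-/- cells had more Bmp2 (2.11-fold, log2 difference 1.08) and Grem1 (2.79-fold, 1.48), and less Bmp5 (2.53-fold, -1.34) and Id3 (2.26-fold, -1.17). These 2 higher and 2 lower of 8 BMP genes stood beside 7.79% of all 6535 genes (3.84% higher, 3.95% lower). Bmp4 was just inside the limit, 1.97-fold lower (-0.98), Bmp7 was at -0.66, Bmp1 at 0.53 and Id1 at -0.09. Without the Ifitm1 class, which nearly all lay in the wildtype library, Bmp2 was at 2.11 and past 2-fold, while Grem1 (0.97), Bmp5 (-0.32) and Id3 (-0.95) were not. With TNF, Tnfr2-/- cells had more Bmp5 (2.63-fold, 1.39) and less Id3 (5.63-fold, -2.49), 1 higher and 1 lower of the 7 genes at the minimum, where 14.5% of all 6481 genes were past 2-fold (6.09% higher, 8.42% lower). Bmp4 was 1.96-fold higher (0.97), Bmp2 was at 0.40, Grem1 at 0.41, Bmp7 at -0.48 and Bmp1 at 0.10. Lower Id3 was thus the difference past 2-fold in the same direction at each treatment, while Bmp5 was on opposite sides. Id3 lies on chromosome 4, which also carries the deleted gene. The 65 genes of the 10 Mb window that holds Id3 had a median genotype difference of -0.255 untreated and -0.202 with TNF, against -0.0886 and -0.198 over all genes, and the part of the chromosome in the Id3 difference was not tested.

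Inside single classes the genotype differences were not the same. In untreated Ptges cells Bmp2 was higher in Tnfr2-/- (1.00) and Bmp4 (-1.05), Bmp5 (-2.10), Bmp7 (-1.83) and Id3 (-1.34) lower, 1 and 4 of 8 beside 24.7% of all genes, while Grem1 differed by 0.23. In untreated generic cells all 4 ligands were higher in Tnfr2-/-, Bmp2 by 2.77, Bmp4 by 1.43, Bmp5 by 3.45 and Bmp7 by 1.79, and none of the 8 was lower, beside 8.22% of all genes. Grem1 was at 0.53 and Id3 at -0.20 there. Bmp4, Bmp5 and Bmp7 were therefore on opposite sides in the Ptges and the generic class of the same libraries. With TNF, where nearly all mesenchymal cells were Ptges, Bmp5 was at 1.38 and Id3 at -2.50, again 1 higher and 1 lower of 7, beside 14.6% of all genes.

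The balance of antagonist and ligand was taken as the Grem1 UMIs for each UMI of Bmp2, Bmp4, Bmp5 and Bmp7 together. A 3' library gives 1 tag per transcript whatever its length, so no length correction was made. The ratio was 0.784 (0.771 to 0.798), 4.13 (4.05 to 4.22), 2 (1.9 to 2.11) and 3.92 (3.8 to 4.05) in the mesenchyme. The summed ligands were at 885.1, 735.6, 970.1 and 1027 CPM. Grem1 alone was highest with TNF in Tnfr2-/- cells, while the ratio was highest with TNF in wildtype cells, where the ligand sum was lowest. Among wildtype untreated classes it was 0.445 (0.435 to 0.455) in Ifitm1 cells, 0.446 (0.422 to 0.47) in proliferative cells, 2.03 (1.77 to 2.32) in Ptges cells and 5.97 (5.68 to 6.28) in generic cells. That last value exceeded both TNF libraries, at a ligand sum of 200.4 CPM against 1142 CPM in Ifitm1 cells. In Tnfr2-/- untreated cells the generic and Ptges classes were closer, at 1.75 (1.63 to 1.87) and 2.38 (2.19 to 2.59). Within Ptges cells the ratio was higher with TNF in each genotype, 4.14 (4.06 to 4.23) in wildtype and 3.92 in Tnfr2-/-.

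**Figure D4:**
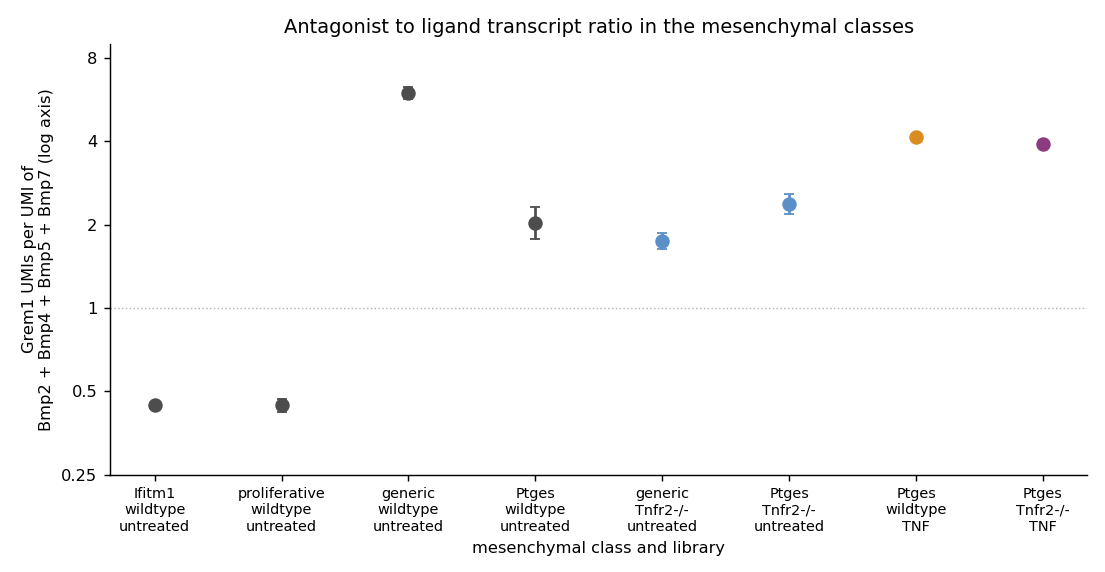
Grem1 UMIs for each UMI of the ligands Bmp2, Bmp4, Bmp5 and Bmp7 together (log axis) in the 8 sums of a mesenchymal class and library, with counting intervals. Wildtype untreated Ifitm1 and proliferative cells sit near 0.445, Ptges cells with TNF near 4, and wildtype untreated generic cells highest at 5.97.

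Single cells of the wildtype untreated mesenchyme, thinned to 5000 UMIs, show which genes were found together. Bmp4 was found in 58.73% of the 962 cells with a Grem1 UMI and in 76.7% of the 455 cells without. Inside the Ifitm1 class these shares were 79.27% and 81.57%, and inside the generic class 22.79% and 26.83%, so most of the gap lay between classes. The ligands were found together more often. Bmp2 was found in 67.94% of the 914 cells with a Bmp4 UMI and in 36.98% of the 503 without, Bmp7 in 53.17% and 25.25%, and Bmp5 in 31.62% and 10.34%. Inside the Ifitm1 class the gaps were smaller, at 71.43% and 57.39% for Bmp2 and 56.58% and 49.43% for Bmp7. Id1 was found in 17.76% of cells with an Id3 UMI and in 8.197% of cells without. The Bmp2 gap was small or absent in the mesenchyme of the other libraries. With and without a Bmp4 UMI, Bmp2 was found in 71.17% and 70.59% of wildtype TNF cells. The shares were 79.07% and 79.07% in Tnfr2-/- untreated and 76.81% and 70.59% in Tnfr2-/- TNF cells. Bmp5 and Bmp7 were still found more often in cells with Bmp4 in these libraries, with smaller gaps.

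In the epithelium, Bmp2 and Id1 were the genes at the minimum in each comparison over all classes. With TNF, Bmp2 was 1.76-fold higher in wildtype (0.81) and 4.12-fold higher in Tnfr2-/- (2.04), and Id1 was at -0.19 and -0.64. No BMP gene of 2 was past 2-fold in wildtype (3.62% of all genes) and 1 of 2 was in Tnfr2-/- (13.4% of all genes). Between genotypes, Bmp2 was at -0.72 untreated and 0.51 with TNF, and Id1 at 0.63 and 0.19, so 0 of 2 were past 2-fold at each treatment (6.01% and 11.4% of all genes). Epithelial Xist was at 557.8, 683.4, 0.158 and 0.1006 CPM and the Y-linked sum at 5.325, 29.36, 0.07898 and 0.1508 CPM, so Tnfr2-/- epithelium had neither, unlike Tnfr2-/- mesenchyme, and the Y-linked sum ran opposite to that of the mesenchyme and differed between both wildtype libraries. The source of this pattern was not tested. The genes of chromosome 2, which carries Id1 and Bmp2, had a median genotype difference of 0.358 in untreated epithelium, and the 58 genes of the window around Id1 had 0.465, against 0.108 over all genes. The Id1 difference of 0.63 stands beside these values, and their part in it was not tested.

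The epithelial classes were also unevenly present. Progenitor.1 held 546, 335, 647 and 95 cells, Progenitor.2 62, 273, 233 and 716 cells, and Absorptive 319, 19, 11 and 1 cells. Bmp2 was low in Progenitor.1, at 9.879, 15, 7.46 and 16.58 CPM, and higher in Progenitor.2, at 47.64, 146.9, 60.14 and 98.92 CPM. The log2 differences, Progenitor.2 minus Progenitor.1, were 2.16, 3.21, 2.85 and 2.51. They made Bmp2 higher in all 4 libraries, with Id3 also higher in the wildtype untreated one (1.51), so 2 of 3, 1 of 2, 1 of 2 and 1 of 2 BMP genes were higher and none was lower, beside 31.5%, 27.4%, 23.4% and 26.3% of all genes. Wildtype untreated Absorptive cells had 81.65 CPM of Bmp2, 2.93 above Progenitor.1 (1 of 2 BMP genes, beside 28.7% of all genes).

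Inside each progenitor class the TNF difference of Bmp2 was smaller in Tnfr2-/- than over all epithelium. In Progenitor.2 it was 1.60 in wildtype (3.04-fold) and 0.71 in Tnfr2-/-, the reverse order of the values over all classes. Id3 in wildtype Progenitor.2 cells was at 26.8 CPM untreated and 9.302 CPM with TNF (-1.43), and at 9.989 CPM in Tnfr2-/- untreated cells (genotype difference -1.34). The wildtype untreated Progenitor.2 sum, on which these calls and that of Bmp2 rest, held 62 cells. Their median was 15574.5 UMIs, against 39167, 33685 and 37713.5 in the other libraries. The counts in Progenitor.2 were 1 higher and 1 lower of 3 for TNF in wildtype (7.46% of all genes), 0 of 2 for TNF in Tnfr2-/- (1.99%), 1 lower of 3 for the genotype untreated (7.98%) and 0 of 2 for the genotype with TNF (7.92%). The genotype difference of Bmp2 was 0.33 untreated and -0.57 with TNF there, opposite in sign to the values over all epithelium. In Progenitor.1 only Id1 was at the minimum, and it was past 2-fold in none of the 4 comparisons, where 2.46% (TNF in wildtype), 2.02% (TNF in Tnfr2-/-), 2.25% (genotype untreated) and 3.33% (genotype with TNF) of all genes were. The Id1 genotype difference in Progenitor.1 was 0.75 untreated (86.12 against 50.74 CPM) and 0.32 with TNF (68.45 against 54.81 CPM).

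Secretory cells had little Id1. In the wildtype untreated library Id1 was at 50.74 CPM in Progenitor.1, 47.03 CPM in Progenitor.3, 44.07 CPM in Progenitor.2 and 54.43 CPM in Absorptive cells, and at 12.33 CPM in the Secretory-Reg4-Spdef-Lyz1 class (-1.96 against Progenitor.1, the 1 BMP gene at the minimum, beside 10.7% of all genes). Enteroendocrine cells had 3.049 CPM from 2 UMIs (-3.68), and with Bmp7 higher (3.95) 1 of 2 BMP genes was higher and 1 lower, beside 36.2% of all genes. Low secretory Id1 recurred in the other libraries, at 15.18 CPM (wildtype TNF) and 17.98 CPM (Tnfr2-/- untreated) in the Secretory-Reg4-Spdef-Lyz1 class and at 5.747 CPM (wildtype TNF) and 6.152 CPM (Tnfr2-/- TNF) in enteroendocrine cells. In the Secretory-Reg4-Ang4 class Bmp2 was at 84.38 CPM, or 15.9% of the mesenchymal level of that library, beside 13.2% for the mesenchymal markers.

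**Figure D5:**
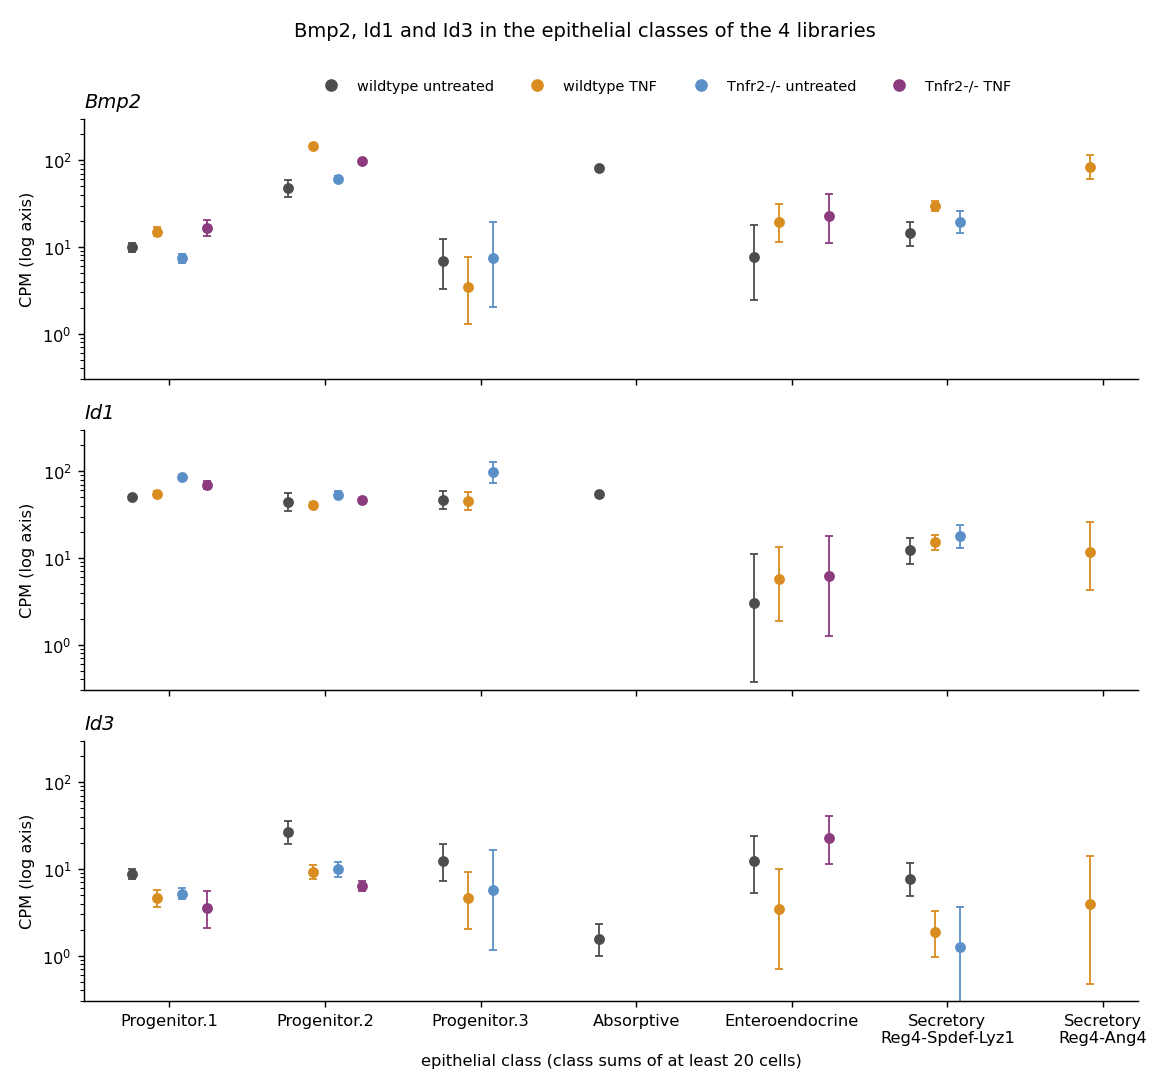
Level of Bmp2, Id1 and Id3 (CPM, log axis) in the epithelial classes, with the 4 libraries by colour and class sums of at least 20 cells shown. Bmp2 is higher in Progenitor.2 than in Progenitor.1 in all 4 libraries (for example 146.9 against 15 CPM with TNF in wildtype), and Id1 is lower in enteroendocrine and Secretory-Reg4-Spdef-Lyz1 cells than in progenitors.

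Other genes of the pathway were taken from a list of 57 (12 ligands, 15 antagonists and modulators, 11 receptors and co-receptors, 8 transducers and their inhibitors, 7 targets, and 4 tolloid proteases and enhancers). With TNF in wildtype mesenchyme 24 reached the minimum, of which 3 were at least 2-fold higher and 4 lower (13.2% of all genes, 6.03% higher and 7.21% lower), at a median of -0.196 against 0.00474 over all genes. Fstl3, an activin-binding follistatin relative (16.52 and 38.21 CPM untreated and with TNF), and the target Id2 (16.9 and 37.94 CPM) were among the higher ones. Bmp3, an atypical ligand that opposes BMP2 (120.3 and 39.64 CPM), the antagonist Nbl1 (294.6 and 108.6 CPM), Bambi, a decoy receptor and BMP target (83.97 and 3.943 CPM), and Pcolce, which enhances Bmp1 activity (865.5 and 252.2 CPM), were lower. In Tnfr2-/- mesenchyme, where 12.4% of all genes were past 2-fold, 1 of 23 was higher with TNF (Fstl3, 24.8 and 58.47 CPM) and 2 were lower, the receptor Bmpr2 (158.9 and 68.95 CPM) and Bambi (22.51 and 8.593 CPM), at a median of -0.0456 against -0.11 over all genes. In the Ptges class alone, 2 of 23 pathway genes were higher and 6 lower with TNF in wildtype (24.4% of all genes), and none of 22 was past 2-fold in Tnfr2-/- (8.71% of all genes). Bambi was under the minimum in Ptges cells of every library, at 8.758 CPM from 3 UMIs, 3.9, 14.41 and 8.593 CPM, so its lower level over all classes was not seen as a call inside this class. Bmpr2 was at 80.46 and 68.95 CPM and Fstl3 at 39.63 and 58.47 CPM in Tnfr2-/- Ptges cells.

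Between genotypes, 2 of 24 pathway genes were lower in Tnfr2-/- untreated mesenchyme (7.79% of all genes past 2-fold), the activin antagonist Fst (20.17 and 6.89 CPM, wildtype first) and Bambi (83.97 and 22.51 CPM), and with TNF 1 of 23 was lower (Fst, 22.37 and 1.677 CPM, beside 14.5% of all genes). None was higher. In the epithelium Crim1, a transmembrane BMP-binding protein, was higher with TNF in wildtype (15.93 and 37.72 CPM, 1 of 11, beside 3.62% of all genes) and the inhibitory Smad7 in Tnfr2-/- (32.1 and 71.15 CPM, 1 of 11, beside 13.4%). Inside Tnfr2-/- Progenitor.1 and Progenitor.2 cells 0 of 5 and 0 of 6 transducers and inhibitors were past 2-fold with TNF, so the Smad7 call did not hold within either class. Bambi was lower in Tnfr2-/- epithelium untreated (24.6 and 11 CPM, 1 of 9, beside 6.01% of all genes) and with TNF (20.65 and 8.975 CPM, 1 of 13, beside 11.4%). In Progenitor.1 alone, 1 of 4 receptors and co-receptors was lower untreated (2.25% of all genes past 2-fold) and 0 of 3 with TNF (3.33%). In Progenitor.2 alone, 0 of 4 was lower and 1 higher untreated (7.98%), and 1 of 4 was lower with TNF (7.92%). The Bambi call thus held in at most 1 of these classes at each treatment. The receptors were present in the epithelium of every library, Bmpr1a at 30.1, 35.4, 37.3 and 50.1 CPM and Bmpr2 at 24.4, 34.3, 35.8 and 43.1 CPM, with the transducer Smad1 at 30.4 to 37.8 CPM.

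A list of 19 other stromal niche genes gives the setting of these differences in the mesenchyme. With TNF in wildtype, where 13.2% of all genes were past 2-fold, 2 of 13 were higher, the surface protein Cd34 (39.97 and 331.8 CPM) and the decoy chemokine receptor Ackr4 (13.16 and 33.52 CPM). The 6 that were lower were Rspo1, an amplifier of WNT signalling (25.29 CPM and 2 UMIs), the ligands Wnt5a (504.7 and 203.8 CPM) and Wnt5b (34.11 and 3.263 CPM), the transcription factor Foxf2 (39.22 and 15.84 CPM), the metalloprotease Adamdec1 (120.9 and 1.02 CPM) and the WNT antagonist Sfrp1 (199.3 and 3.467 CPM). In Tnfr2-/-, beside 12.4% of all genes, 2 of 9 were higher with TNF, Cd34 (15.62 and 137.1 CPM) and F3, the gene of tissue factor (15.62 and 71.05 CPM), and 2 were lower, Rspo3 (111.2 and 54.91 CPM) and Wnt5a (307.3 and 131.8 CPM). Inside the Ptges class, 2 of 11 were higher and 5 lower in wildtype, and 2 of 9 higher and 1 lower in Tnfr2-/- (24.4% and 8.71% of all genes). Cd34 was at 116.8 and 333.5 CPM in wildtype and at 21.62 and 137.1 CPM in Tnfr2-/- Ptges cells, higher with TNF in each genotype. Wnt5a was at 738.6 and 204.7 CPM in wildtype but at 204.2 and 131.8 CPM in Tnfr2-/- Ptges cells, the latter under 2-fold. Between genotypes, 1 of 13 was higher (Ackr4, 13.16 and 48.69 CPM, wildtype first) and 5 were lower in Tnfr2-/- untreated mesenchyme, among them Adamdec1 (120.9 and 9.187 CPM) and Sfrp1 (199.3 and 15.62 CPM), beside 7.79% of all genes. The classes differed in this. In untreated Ptges cells 0 of 11 were higher and 7 lower (24.7% of all genes). In untreated generic cells 2 of 9 were higher, among them Wnt5a (126 and 370.9 CPM), and 1 was lower (8.22%). With TNF, F3 was higher (19.99 and 71.05 CPM) and Cd34 lower (331.8 and 137.1 CPM) in Tnfr2-/-, out of 9, beside 14.5% of all genes. F3 was higher in epithelium than in mesenchyme in every library (674.8 against 71.05 CPM in Tnfr2-/- TNF cells). That mesenchyme, on which each F3 call rests, also held the most epithelial marker RNA (813.8 CPM). The part of this RNA in its F3 level was not tested.

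The genes whose levels ran most alike with each BMP gene were ranked by Pearson's r of log2(CPM + 1) over the 27 sums of a class and library with at least 20 cells, as a description across sums that share libraries. For Grem1 these were Mmp3 (0.988), Entpd1 (0.985) and Prrx1 (0.985), and for Bmp4 they were Htra1 (0.992), Masp1 (0.98) and Tmem119 (0.979). Bmp5 ran most like Fam20a (0.982), Lepr (0.979) and Apcdd1 (0.972), Bmp7 like Olfm1 (0.951), and Bmp1 like Rragd (0.972). Bmp2, which is made in both compartments, had lower values, led by H2-K1 (0.926). Id3 was led by A830082K12Rik (0.919), and Id1 by Hes1 (0.796), a NOTCH target. Id1 and Id3 had r = 0.125 with each other, and Id1 had r = -0.0245 with Bmp4, whereas Bmp4 and Grem1 had r = 0.956 and Bmp4 and Bmp5 r = 0.951. These sums pool epithelial and mesenchymal classes, so genes low in epithelium get a high r from that split alone. Within wildtype untreated mesenchyme, generic cells had less Bmp4 but more Grem1 than Ifitm1 cells.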

How the data were processed

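Single-cell RNA was measured in 4 libraries of mouse colonic organoids. The deposited matrix holds raw UMI counts per gene and cell, which the authors made with Cell Ranger 5.0.0 on mm10 (per the submitters' processing notes). They removed cells with fewer UMIs than their limit and doublets of epithelial and mesenchymal cells, and clustered the cells in monocle3. Their classes were used as deposited, and 35 cells without a class entered no comparison. No column of other samples was present (0). Libraries were mapped to groups through the genotype and treatment given for each cell. The deposited size factor, a score, and plotting coordinates were not used here.

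Counts were summed per class and library and scaled to CPM. Differences used log2(CPM + 1), and a gene was called at 2-fold or more and 20 CPM in at least 1 of 2 sums. With 1 library per group there was no test. Poisson, binomial ratio and Clopper-Pearson intervals (exact, 95%) cover counting error only. The limit at 0 is 3 counts. Shares were taken after thinning to 5000 UMIs, which left out 405 cells (56, 298, 37 and 14 by library). Scrublet at an expected rate of 0.06 called 46 doublets (0.747%), 25 of them without a class, and they were kept. That rate of calls follows the authors' own removal. The lowest cell held 894 UMIs. The calling was tested on simulated data. Positions came from GENCODE M21 by identifier, which matched 30317 of 30360 genes.

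The 9 genes and the pathway, niche and marker lists were chosen with earlier results of these data known. Pathway and niche genes are named where they were past 2-fold, apart from some that are not reported here, with Bmpr1a, Bmpr2 and Smad1 given as the receptors and transducer of the epithelium. Alternatives were the pseudocount, the minimum, TMM and median-of-ratios scaling (edgeR 4.0.16 in R 4.3.3 for TMM), the mean over cells, subsets of cells and classes, the chromosome median and the thinning. The software was Python 3.11.15 with numpy 2.4.6, pandas 2.3.3, scipy 1.17.1, scanpy 1.11.5 and matplotlib 3.10.9.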

Additional observations from a re-analysis of the deposited data

Results flagged for a closer look

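In sums over a compartment, some differences had opposite signs in the paired comparison, beyond counting error on each side. These differences between groups were not tested, since each group was 1 library. The part of the class mix in them was not tested either. For Bmp4 in the mesenchyme the TNF difference was -1.46 on the log2(CPM + 1) scale in wildtype and 0.49 in Tnfr2-/-, and the genotype difference was -0.98 untreated and 0.97 with TNF. For Bmp5 in the mesenchyme the genotype difference was -1.34 untreated and 1.39 with TNF. In Ptges cells alone the TNF difference of Bmp4 kept both signs (-1.38 in wildtype and 0.63 in Tnfr2-/-). Untreated Tnfr2-/- Ptges cells were also below wildtype in Bmp4 (165.7 against 344.5 CPM) and Bmp5 (20.42 against 90.5 CPM). Untreated Tnfr2-/- generic cells were above wildtype in Bmp4 (192.3 against 70.54 CPM) and Bmp5 (28.23 against 1.672 CPM). For Bmp2 in the epithelium the genotype difference was -0.72 untreated and 0.51 with TNF. Progenitor.2 cells alone had both signs reversed, with Tnfr2-/- at 60.14 against 47.64 CPM untreated (overlapping intervals) and 98.92 against 146.9 CPM with TNF. Progenitor.1 cells alone kept both signs, with Tnfr2-/- at 7.46 against 9.879 CPM untreated and 16.58 against 15 CPM with TNF (overlapping intervals).

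The 35 cells without a class, which no comparison used, also held BMP genes above the limit of 3 counts. The 31 such cells of the wildtype untreated library had 122 CPM of Bmp2, 110 CPM of Bmp4, 26.7 CPM of Bmp5, 38.1 CPM of Bmp7, 24.3 CPM of Bmp1, 161 CPM of Grem1, 42 CPM of Id1 and 115 CPM of Id3. The 4 cells of the Tnfr2-/- untreated library had 133 CPM of Bmp2, 70.8 CPM of Bmp4, 28.3 CPM of Bmp7, 28.3 CPM of Bmp1, 578 CPM of Grem1, 45.3 CPM of Id1 and 17 CPM of Id3. Their median depths were 66566 and 88648 UMIs, and 25 of the 35 were called doublets.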

How the results depend on the processing

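No paired analysis was possible because each group had 1 library. Across the 12 comparisons and their alternatives, the count of BMP genes past 2-fold stayed within 1.5 times in 122 cases and moved in 16. A count can hold while its genes change. For TNF in wildtype mesenchyme without the Ifitm1 class, Bmp4 and Bmp7 dropped out and Bmp2 came in. None of the 44 differences past 2-fold changed sign under these alternatives, while 11 of the 25 smaller ones did under at least 1. Generic cells alone were not among the alternatives. There the untreated genotype difference of Bmp5 had the opposite sign to its called difference over all mesenchyme. For TNF in wildtype epithelium the count was 0, and it was 1 with no minimum, 1 as the mean over cells, 1 with classes weighted equally and 2 in Progenitor.2 alone. For TNF in Tnfr2-/- epithelium it was 1, and 2 with no minimum but 0 in Progenitor.1 alone, 0 in Progenitor.2 alone and 0 with classes weighted equally. For the genotype in untreated epithelium it was 0, and 1 in Progenitor.2 alone and 1 after subtracting the chromosome median. For the genotype in TNF epithelium it was 0, and 1 with no minimum, 1 as the mean over cells and 1 with classes weighted equally. For TNF in Tnfr2-/- mesenchyme it was 3 and 1 in Ptges cells alone, for the genotype in untreated mesenchyme 4 and 1 without the Ifitm1 class, and for the genotype in TNF mesenchyme 2 and 1 at a pseudocount of 10 CPM.

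Without the Ifitm1 class, the wildtype TNF difference was 1.77 for Bmp2, -0.68 for Bmp4, -1.81 for Bmp5, -0.29 for Bmp7, 1.62 for Grem1 and -1.91 for Id3, and the untreated genotype difference was 2.11 for Bmp2, -0.32 for Bmp5, 0.97 for Grem1 and -0.95 for Id3. TMM put the untreated genotype difference of Bmp2 at 0.97 and that of Bmp4 at -1.08, and the TNF genotype difference of Bmp4 at 1.09. The share of higher genes among all genes past 2-fold moved by over 10 points under another scaling in 8 comparisons. Under TMM and median-of-ratios it was 59% and 61.8% in place of 70.1% (TNF, wildtype epithelium), 51.2% and 70.3% in place of 41.5% (TNF, Tnfr2-/- epithelium), 29.1% and 26% in place of 40.3% (genotype, untreated epithelium), 53.9% and 63.5% in place of 44.2% (genotype, TNF epithelium), 58.6% and 58.7% in place of 45.9% (TNF, Tnfr2-/- mesenchyme), 38.6% and 58.1% in place of 49.3% (genotype, untreated mesenchyme), 54.9% and 65.5% in place of 42% (genotype, TNF mesenchyme), and 53.9% and 49.7% in place of 60.5% (mesenchyme minus epithelium, wildtype untreated). The median of all genes moved at most from 0.143 to -0.147 (that last comparison, median-of-ratios). The cause was not tested. Of 72 shares of cells with a UMI, 1 for each BMP gene, compartment and library, 35 were at least 10%. The count was 26 at 2000 UMIs per cell and 45 without thinning. Sums of 90 and 122 mesenchymal cells limit what the Tnfr2-/- values can show.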
